A study of Mus musculus with 4 samples.

Results

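The genes described here build and run the mitotic spindle: kinesin motors, kinetochore and centromere proteins, the spindle checkpoint, the chromosomal passenger complex with the mitotic kinases, condensin, the chromosome surface, spindle microtubule-binding proteins, cytokinesis factors and the regulators of mitotic entry and exit. They were taken as 60 named genes, of which 59 appear among the 9546 genes of the deposited rlog table, and the raw counts of the same 59 were analysed. The missing gene is Cks2, a small Cdk-binding subunit, which had 1 to 3 counts a library and 7 in all, under the minimum of 10 counts over the libraries applied here. The last 400 bases of the Cks2 transcripts hold 351 different words of 50 bases, and up to 80 of them also occur in Gm15452, a processed pseudogene with 0 counts.

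The RNA came from CD4+ T cells of the spleen. The mice were of the Tg4 Nr4a3-Tocky Il10-GFP line, in which T cells bear a transgenic receptor that sees a peptide of myelin basic protein (MBP), Nr4a3 drives a fluorescent Timer that reports receptor signals, and EGFP reports Il10. All mice had received 4 mg/kg of the peptide [4Y]-MBP under the skin 24 h before, and no untreated library belongs to the comparison. Both sorted populations were CD4+ and Timer+, and they differed in Il10-EGFP: 2 libraries were Il10-EGFP+ and 2 were Il10-EGFP-. The labels speak of biological replicate mice, but the sources used here give neither the age of the mice nor whether an Il10-EGFP+ and an Il10-EGFP- library came from the same mouse, although the methods speak of a replicate pair. P-values therefore measure only the spread between these libraries. A further pair of libraries, which the authors removed as an outlier, was not analysed here. The populations are bulk sorts, so that a larger share of dividing cells and more mitotic RNA in each dividing cell cannot be told apart.

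When a cell divides, its condensed chromosomes attach to spindle microtubules through kinetochores, a checkpoint holds anaphase until every kinetochore is attached, and cytokinesis then parts the daughter cells. Most proteins of this machinery are made late in the cell cycle, in G2 and mitosis, and their genes are repressed in resting cells. T cells leave rest after strong receptor signals and divide quickly, and transcripts such as Mki67 and Top2a are the usual RNA marks of dividing lymphocytes.

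The libraries were shallow and alike in depth, with 644679 to 730330 counts in all. The method reads the 3′ ends of transcripts, and long genes therefore gain no counts by their length. Of 47643 genes, 9608 had at least 10 counts over the 4 libraries and entered edgeR's quasi-likelihood test, on counts scaled by TMM, which corrects for library composition. Counts are given below with the Il10-EGFP- libraries first, replicate 1 before replicate 2. Of 12 T cell markers all were detected, with a summed level of 3554 to 3863 CPM (counts scaled to library size with TMM) in Il10-EGFP- and 4241 to 4484 CPM in Il10-EGFP+ cells. Cd3e and Cd4, which define the sorted T cells, had 62 to 99 and 149 to 209 counts in every library. Il10, whose reporter set the sort, had 0 and 0 against 29 and 41 counts. Of the 12 B cell and plasma cell markers, 10 could be tested, and 9 of these had a positive log2 fold change, with a median of 1.48 over the 10. Of the 10, 6 were called higher in Il10-EGFP+ cells, where 2.35% of all genes tested were. The summed level of the 12 was 143.9 and 191.1 CPM in Il10-EGFP- and 573.6 and 618.9 CPM in Il10-EGFP+ cells. The defining B cell gene Cd79a, with too few counts to be tested, had 2 and 0 against 0 and 0. The immunoglobulin gene Igkc had 6 and 18 against 81 and 116 counts. The summed level of the 12 myeloid markers was 111.3 and 138.6 CPM against 385.0 and 200.5 CPM, with Adgre1, Clec9a and Siglech at 0 throughout, and that of the 10 erythroid and megakaryocyte markers was 162.9 and 143.0 against 277.3 and 207.7 CPM, with Epor at 0 throughout. The 8 CD8 and NK cell markers summed to 39.4 and 70.0 against 53.9 and 69.2 CPM. The part of these other cell types in the results that follow was not tested.

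The mitotic genes were higher in Il10-EGFP+ T cells as a body. Together they took 7030 and 7184 CPM in the Il10-EGFP- libraries and 12611 and 12442 CPM in the Il10-EGFP+ libraries, a ratio of means of 1.76. The 2 libraries of a population differed little in this sum, and the populations did not overlap. All 59 genes had a positive log2 fold change, against 4804 of the 9608 genes tested, and their median was 0.96 (a 1.95-fold difference), against a median of 2.5e-05 over all genes tested. Of the 59, 33 rose at an adjusted p under 0.05 and none fell. Over all genes tested, 2.35% were called higher and 1.74% lower (4.09% in either direction) in the same edgeR test with Benjamini-Hochberg adjustment. In 52 of the 59, the lower of the Il10-EGFP+ values exceeded the higher of the Il10-EGFP- values, which was so for 22.3% of all genes tested. DESeq2's Wald test called 21 of the 59, all of them among the 33 (it left out Kif4, Kif20a, Kif23, Ndc80, Nuf2, Ttk, Aurka, Ncapg, Cdca2, Ckap2l, Dlgap5 and Racgap1), with 0.739% of all genes called higher, and limma on the rlog values called 23, with 1.09% of all genes called higher. With the replicate number as a block, edgeR called 36 (3.26% of all genes) and DESeq2 called 10 (0.281%). Leaving out Il10-EGFP- replicate 1 or 2 gave 23 or 28 calls in edgeR, and leaving out Il10-EGFP+ replicate 1 or 2 gave 31 or 25. A fit without a library leaves a population with 1 sample, which is assumed to vary like the other population and like other genes of its level, so that a call lost there does not by itself show a smaller difference.

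**Figure D1:**
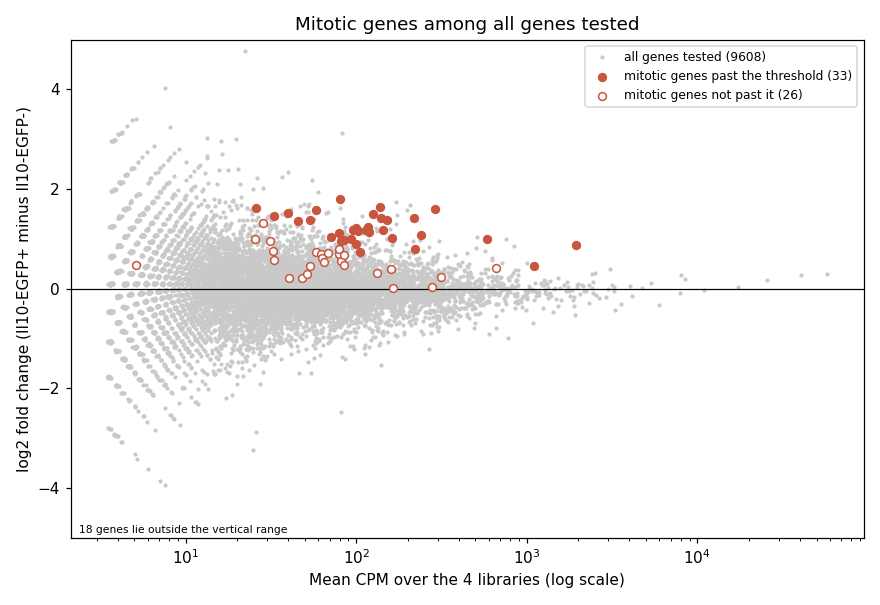
Each point is a gene, with its mean level over the 4 libraries (CPM, log scale) on the horizontal axis and its log2 fold change, Il10-EGFP+ minus Il10-EGFP-, on the vertical axis; grey points are the 9608 genes tested, filled red points the 33 mitotic genes past the threshold and open red points the 26 that were not. All mitotic genes lie above the zero line, and 18 genes of the whole set lie outside the drawn range.

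The genes were expressed over a wide range. Their mean counts per library ran from 3.5 for Cdc25c to 1312 for Top2a, with a median of 57.5, and 55 of the 59 had a mean of at least 20 counts. Of these 55, 32 were called higher, where 3.71% of all genes with such a mean were. Log2 fold changes ran from 0.02 (Mad2l1) to 1.81 (Hmmr), 26 genes differed by at least 2-fold and 24 of the 26 passed the threshold. A log2 fold change of at least 1 was reached by 6.79% of all genes tested. In the deposited rlog values, a log2 scale on which DESeq2 draws low counts toward a gene's mean, all 59 were higher in Il10-EGFP+ cells too, by 0.00898 to 1.02 with a median of 0.33, and 52 did not overlap.

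**Figure D2:**
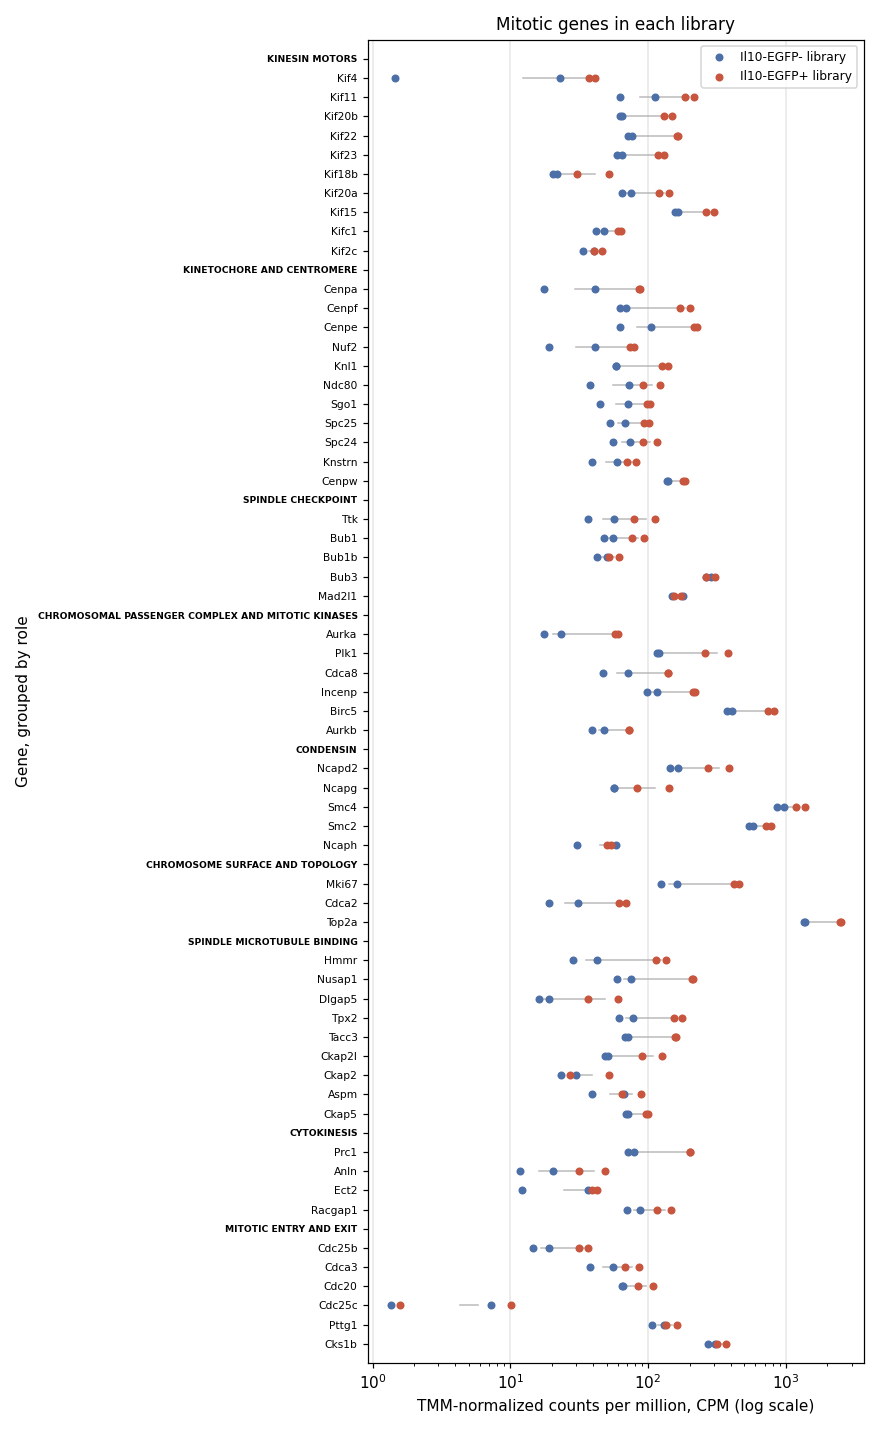
The level of each of the 59 genes in every library, in TMM-normalized CPM on a log scale, with genes grouped by role; blue points are the 2 Il10-EGFP- libraries, red points the 2 Il10-EGFP+ libraries, and the grey line joins the means of the populations. Top2a, Smc4, Smc2 and Birc5 are the most abundant, and red points lie to the right of blue points in all but 7 genes.

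The promoters of these genes share short sequences that the choice of the genes did not use. Genes of G2 and mitosis are known to carry a CHR (cell cycle genes homology region), read here as TTTGAA or TTCGAA on either strand, at which a repressor complex called DREAM sits in resting cells and activators with B-Myb and FOXM1 act in dividing cells. A CCAAT box, read as CCAAT on either strand and bound by the factor NF-Y, often stands before it. Promoter windows of RefSeq (GRCm38.p6), each from 250 bases before to 50 bases after a transcription start, were at hand for 50 of the 59 genes, and those of Kif20a, Spc24, Aurkb, Incenp, Smc4, Cdca2, Tpx2, Dlgap5 and Cdc25c were not used here. A CHR match stood in 41 of the 50 (82.0%), against 21.7% of the 27025 genes with a window and 16.7% of the 7373 of these that were tested. A CCAAT match stood in 36 of the 50 (72.0%), against 41.1% of all and 43.4% of the tested genes, and both stood in 35 (70.0%), against 8.61% and 7.17%. The CHR matches lay close to the start: in 37 of the 50 genes a match began within 50 bases on either side of it. Counting only the bases before the start lowered the share with a CHR to 38.0%, against 19.6% of all genes. A letter match is a description and not a site of binding.

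**Figure D3:**
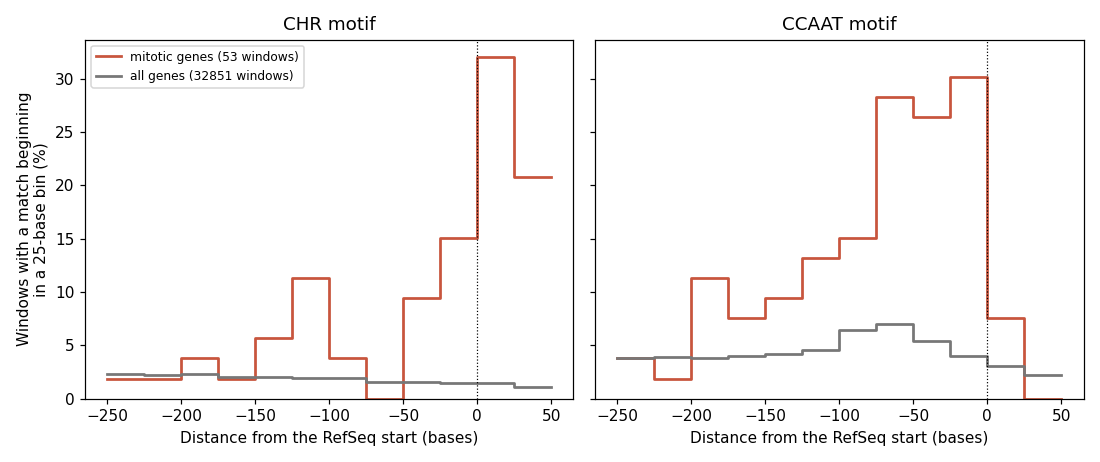
The share of promoter windows in which a CHR match (left) or a CCAAT match (right) begins, in bins of 25 bases by distance from the RefSeq start, for the 53 windows of the mitotic genes (red) and all 32851 windows (grey). For CHR the mitotic genes reach 32.1% in the first 25 bases after the start, where all windows have 1.43%, and for CCAAT they are highest in the 75 bases before it.

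A few of these promoters are printed from 5′ to 3′ on the gene's own strand, with CHR and CCAAT matches in capitals, to show the arrangement in genes called in at least 12 of the 14 alternative fits (Mki67, Top2a, Ncapd2, Prc1, Kif11), in 2 genes that did not pass the test (Bub3 and Cdc20) and, as 30 bases of transcribed sequence, in 3 genes whose CHR follows the start (Hmmr, Plk1, Aurka). The stretches end at the base before the start in the first 7, and capitals that read ATTGG or TTCAAA are matches on the other strand. All coordinates are on GRCm38.p6.
Mki67, chr7:135716380-135716579, minus strand: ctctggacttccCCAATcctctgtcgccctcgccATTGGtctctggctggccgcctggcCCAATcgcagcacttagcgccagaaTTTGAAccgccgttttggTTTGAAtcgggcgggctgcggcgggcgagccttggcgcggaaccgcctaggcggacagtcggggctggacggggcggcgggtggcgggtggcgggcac
Top2a, chr11:99024190-99024389, minus strand: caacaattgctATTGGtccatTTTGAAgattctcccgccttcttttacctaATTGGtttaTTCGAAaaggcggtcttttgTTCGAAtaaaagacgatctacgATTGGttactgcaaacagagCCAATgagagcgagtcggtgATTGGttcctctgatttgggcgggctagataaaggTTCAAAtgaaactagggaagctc
Ncapd2, chr6:125191587-125191766, minus strand: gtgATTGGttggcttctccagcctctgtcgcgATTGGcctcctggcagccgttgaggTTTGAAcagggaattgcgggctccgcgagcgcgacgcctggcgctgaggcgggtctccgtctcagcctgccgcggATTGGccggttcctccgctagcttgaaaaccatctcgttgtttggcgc
Prc1, chr7:80294376-80294475, plus strand: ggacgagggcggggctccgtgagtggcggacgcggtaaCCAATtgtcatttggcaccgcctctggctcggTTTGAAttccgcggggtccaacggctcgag
Kif11, chr19:37376282-37376381, plus strand: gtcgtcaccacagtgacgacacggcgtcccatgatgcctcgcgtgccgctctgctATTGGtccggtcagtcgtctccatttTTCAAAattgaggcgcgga
Bub3, chr7:131560270-131560369, plus strand: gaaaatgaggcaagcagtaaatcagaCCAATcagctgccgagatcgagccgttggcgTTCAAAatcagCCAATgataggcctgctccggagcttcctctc
Cdc20, chr4:118437344-118437443, minus strand: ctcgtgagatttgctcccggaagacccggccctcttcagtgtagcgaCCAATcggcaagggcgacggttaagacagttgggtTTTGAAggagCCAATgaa
Hmmr, chr11:40733408-40733437, minus strand: gaggtaaaTTTGAAttcaggcgagctgaca
Plk1, chr7:122159455-122159484, plus strand: cagcgccgcgTTTGAAttcggggaggagcg
Aurka, chr2:172370521-172370550, minus strand: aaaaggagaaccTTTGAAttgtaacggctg

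Among the mitotic genes themselves, those with and without a CHR match had similar medians. Of the 41 with a match, 22 were called higher and the median log2 fold change was 0.96, with a range of 0.04 to 1.81. Of the 9 without a match (Cenpe, Nuf2, Knstrn, Mad2l1, Birc5, Ncaph, Nusap1, Tacc3 and Pttg1), 5 were called higher and the median was 1.00, with a range of 0.02 to 1.64. All 9 kinesins with a window held a CHR match, as did all 4 cytokinesis genes.

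Kinesins move along microtubules or take them apart, and 7 of the 10 kinesin genes rose, with a median log2 fold change of 0.98. Kif11, the motor that pushes the spindle poles apart, had 83 and 43 against 135 and 128 counts, which is 1.17 on the log2 scale (standard error 0.21, adjusted p = 0.000208, edgeR; values in brackets after counts are given in this order, log2 fold change first). Kif22, which pushes chromosome arms away from the poles, had 56 and 49 against 102 and 114 counts (1.14, standard error 0.21, adjusted p = 0.000297, edgeR). In both genes the lower Il10-EGFP+ library stood well above the higher Il10-EGFP- library. Kif20b, a motor of late cytokinesis, went from 46 and 44 to 83 and 104 counts (1.15, standard error 0.23, adjusted p = 0.000584, edgeR). Kif15, which can stand in for Kif11, was the most abundant kinesin, with 116 and 113 against 166 and 207 counts (0.80, standard error 0.17, adjusted p = 0.00167, edgeR). The central spindle motors Kif23 and Kif20a, both needed for cytokinesis, rose by 1.00 and 0.90 on the log2 scale, from 44 and 44 to 82 and 82 counts and from 55 and 44 to 89 and 83 counts (adjusted p = 0.0054 and 0.0113, edgeR). Exons of Kif20a overlap those of Cdc23 on the other strand, which had 247 counts in all, and the sources used here do not state whether the counting kept the strands apart.

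Kif4, a chromosome-arm motor, passed the threshold on uneven counts. It had 17 and 1 against 26 and 26 counts (1.63, standard error 0.49, adjusted p = 0.0441, edgeR), and the single count of Il10-EGFP- replicate 2 set the size of the difference. Without that library the log2 fold change was 0.76 (adjusted p = 0.518, edgeR), whereas leaving out replicate 1 in its place gave 4.58. The call was also lost without either Il10-EGFP+ library (adjusted p = 0.107 and 0.0675, edgeR). Kif20a lost its call without Il10-EGFP- replicate 2 (adjusted p = 0.104, edgeR) or Il10-EGFP+ replicate 1 (0.122), and Kif23 without Il10-EGFP- replicate 1 (0.065). Kif18b, which shortens microtubules, had 15 and 15 against 33 and 21 counts (0.95, adjusted p = 0.201, edgeR; 0.52 without Il10-EGFP+ replicate 1) and Kifc1, a motor that moves toward spindle poles and shares 463 of its 833 end words with the near-copy Kifc5b, had 31 and 33 against 38 and 44 (0.46, adjusted p = 0.502, edgeR). Kif2c, which takes apart microtubules at centromeres, had 30 and 23 against 29 and 28 counts. Its log2 fold change was 0.21 with a 95% interval of -0.46 to 0.88, and its libraries overlapped. With a library left out it ran from 0.082 to 0.35.

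The kinetochore joins a chromosome to the spindle, and 6 of the 11 kinetochore and centromere genes rose, with a median of 0.96. In CPM, all 11 had both Il10-EGFP+ libraries above both Il10-EGFP- libraries, which was so for 22.3% of all genes tested. The 2 large outer proteins led by p. Cenpf, a coat protein of the outer kinetochore, had 46 and 47 against 108 and 139 counts (1.51, standard error 0.21, adjusted p = 1.93e-06, edgeR). Cenpe, the kinetochore's own motor, had 77 and 43 against 142 and 149 counts (1.38, standard error 0.21, adjusted p = 5.37e-06, edgeR). Knl1, the scaffold on which checkpoint proteins gather, had 43 and 40 against 79 and 97 counts (1.18, standard error 0.23, adjusted p = 0.000602, edgeR). Cenpa, the histone that marks the centromere, rose from 13 and 28 to 55 and 60 counts (1.58, standard error 0.32, adjusted p = 0.000679, edgeR).

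Cenpa showed how far a single library could move a gene with few counts. Without Il10-EGFP- replicate 1, which had its 13 counts, the log2 fold change was 1.08 and the call was lost (adjusted p = 0.0793, edgeR), and leaving out replicate 2 in its place gave 2.29. The 4 genes of the Ndc80 complex, the rod that grips the microtubule, had log2 fold changes of 0.96 (Ndc80), 1.37 (Nuf2), 0.68 (Spc24) and 0.69 (Spc25). Ndc80, with 28 and 50 against 58 and 85 counts, and Nuf2, with 14 and 28 against 47 and 55, passed the threshold in edgeR (adjusted p = 0.0227 and 0.00518) but not in DESeq2 (adjusted p = 0.331 and 0.165), which called 4 of the 11 kinetochore genes. Spc24, with 41 and 51 against 58 and 80, and Spc25, with 50 and 36 against 64 and 65, did not (adjusted p = 0.111 and 0.113, edgeR). The 95% intervals were 0.19 to 1.17 for Spc24 and 0.19 to 1.19 for Spc25, and a difference between the 4 genes was not tested. Ndc80 lost its call without Il10-EGFP- replicate 1 (log2 fold change 0.56, adjusted p = 0.424, edgeR) or Il10-EGFP+ replicate 2 (0.74, adjusted p = 0.275), and its 1.95-fold difference became 2.82-fold without Il10-EGFP- replicate 2. Nuf2 lost it without Il10-EGFP- replicate 1 (log2 fold change 0.91, adjusted p = 0.196, edgeR) and had a log2 fold change of 2.01 without Il10-EGFP- replicate 2.

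The other kinetochore and centromere genes did not pass the test. Sgo1, which guards the cohesin that holds sister centromeres together, had 33 and 49 against 62 and 71 counts (0.79, adjusted p = 0.0666, edgeR), and it was called without Il10-EGFP- replicate 2 (1.16, adjusted p = 0.0265), while it stood at 0.48 without Il10-EGFP- replicate 1. Knstrn, a spindle and kinetochore adaptor, had 44 and 27 against 44 and 57 counts (0.61, adjusted p = 0.266, edgeR), and its log2 fold change ran from 0.35 without Il10-EGFP- replicate 2 to 0.94 without Il10-EGFP- replicate 1. Cenpw, a DNA-binding protein of the inner kinetochore, was the most abundant of the 11 and differed least, with 103 and 94 against 117 and 124 counts (0.39, 95% interval 0.02 to 0.77, adjusted p = 0.282, edgeR).

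**Figure D4:**
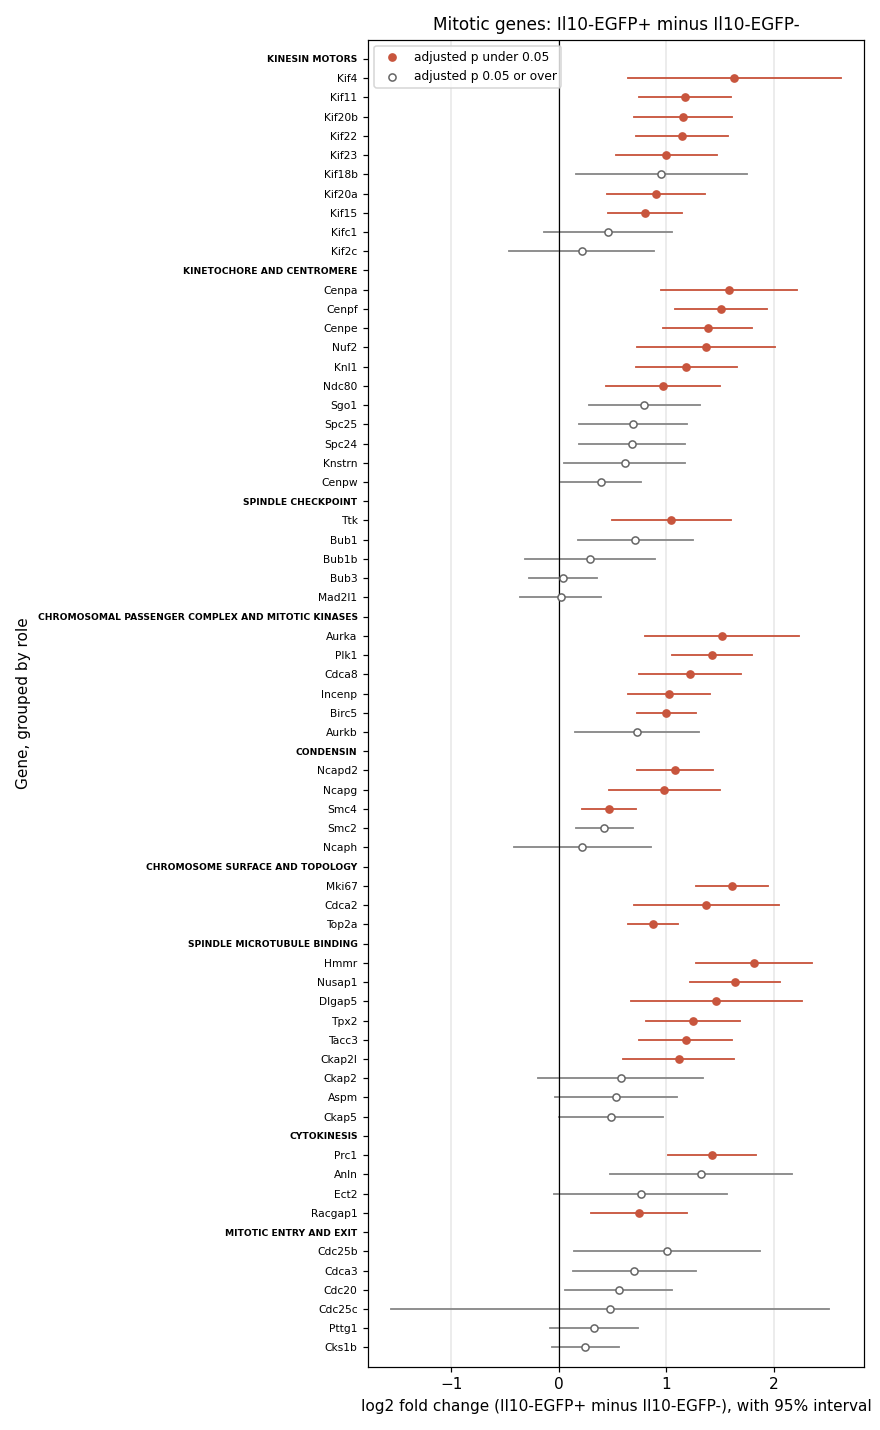
The log2 fold change of each gene, Il10-EGFP+ minus Il10-EGFP-, with its 95% interval from the edgeR fit, in groups by role and ordered by size; filled red points passed an adjusted p of 0.05 and open points did not. The checkpoint genes Bub3 and Mad2l1 lie at 0.04 and 0.02, and Hmmr is highest at 1.81.

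The spindle checkpoint delays anaphase, and 1 of its 5 genes rose, with a median log2 fold change of 0.29. Only mitotic entry and exit had fewer calls in this fit, and a difference between the groups was not tested. Ttk, the kinase that starts the signal, had 27 and 39 against 50 and 78 counts (1.05, standard error 0.27, adjusted p = 0.0158, edgeR). Its call was lost without Il10-EGFP- replicate 1 (0.245) or Il10-EGFP+ replicate 2 (0.302), and DESeq2 did not call it (adjusted p = 0.27). Bub1, a kinase bound to Knl1, had 41 and 33 against 48 and 65 counts (0.71, adjusted p = 0.132, edgeR), and Bub1b, a part of the complex that blocks Cdc20, had 37 and 29 against 39 and 36 (0.29, adjusted p = 0.735, edgeR; 0.16 to 0.42 with a library left out). Bub3 and Mad2l1, which complete the checkpoint complex, were the most abundant genes of the group and differed least. Bub3 had 194 and 197 against 192 and 182 counts, and Mad2l1 had 109 and 122 against 98 and 120. In CPM, Bub3 stood at 275.4 ± 17.0 in Il10-EGFP- and 283.4 ± 29.5 in Il10-EGFP+ cells (SD, n = 2 libraries each) and Mad2l1 at 163.0 ± 21.2 and 164.2 ± 12.6 (SD, n = 2 each). Their 95% intervals of the log2 fold change were -0.28 to 0.36 for Bub3 and -0.36 to 0.39 for Mad2l1, which leave out a 2-fold difference in either direction. The sign of both depended on the libraries: without Il10-EGFP- replicate 1 the log2 fold changes were -0.027 and -0.12, without Il10-EGFP+ replicate 1 that of Bub3 was -0.068, and without Il10-EGFP+ replicate 2 that of Mad2l1 was -0.069. Scaling by library size alone also turned Mad2l1 to -0.011.

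The chromosomal passenger complex corrects wrong attachments and later directs cytokinesis. Of this complex and the mitotic kinases, 5 of 6 genes rose, with a median of 1.12. In all 6 the populations did not overlap in CPM, where 22.3% of all genes tested were higher without overlap. Birc5 (survivin), a subunit of the complex, was the most abundant, with 274 and 279 against 515 and 513 counts (1.00, standard error 0.14, adjusted p = 1.04e-06, edgeR). Plk1, the polo kinase that acts from mitotic entry to cytokinesis, had 88 and 79 against 238 and 178 counts (1.43, standard error 0.19, adjusted p = 2.89e-07, edgeR). Incenp, the scaffold of the complex, had 72 and 79 against 139 and 147 counts (1.02, adjusted p = 0.000297, edgeR), and Cdca8 (borealin) had 53 and 32 against 88 and 96 (1.22, adjusted p = 0.000473, edgeR). Aurka, the kinase of the spindle poles, had 13 and 16 against 36 and 42 counts (1.52, standard error 0.36, adjusted p = 0.0054, edgeR), and leaving out Il10-EGFP- replicate 1 gave 1.32 with the call lost (adjusted p = 0.0746, edgeR). Aurkb, the kinase of the passenger complex itself, had 29 and 33 against 46 and 50 counts, and its log2 fold change of 0.73 (95% interval 0.15 to 1.31) did not pass the threshold (adjusted p = 0.16, edgeR).

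Condensin folds chromosomes into their mitotic form, and 3 of its 5 genes rose, with a median of 0.47. Ncapd2, a subunit of condensin I, had 121 and 99 against 242 and 188 counts (1.08, standard error 0.18, adjusted p = 3.48e-05, edgeR). Ncapg, a subunit of the same complex, had 42 and 39 against 52 and 98 counts (0.98, standard error 0.26, adjusted p = 0.0153, edgeR). The 2 Il10-EGFP+ libraries of Ncapg lay far apart, and without replicate 2 its log2 fold change was 0.53 (adjusted p = 0.535, edgeR). Without either Il10-EGFP- library the log2 fold change stayed at 0.98 while the adjusted p went to 0.0689 and 0.0544 (edgeR). The core ATPases Smc2 and Smc4, which condensins I and II share, had more counts than the other 3 genes and smaller log2 fold changes than Ncapd2 and Ncapg, a contrast that was not tested. Smc4 had 638 and 669 against 742 and 949 counts (0.47, standard error 0.13, adjusted p = 0.0207, edgeR), the smallest log2 fold change among the 33 genes that passed, and Smc2 had 398 and 398 against 493 and 501 (0.42, standard error 0.13, adjusted p = 0.0557, edgeR). Smc2 passed in 4 alternatives, which were limma on rlog (adjusted p = 0.0477), limma voom (0.0263), edgeR with a replicate block (0.00678) and edgeR with at least 10 counts in every library (0.021). Smc4 lost its call without Il10-EGFP- replicate 1 (0.175) or Il10-EGFP+ replicate 2 (0.319). Ncaph, which closes the condensin I ring, had 43 and 21 against 34 and 35 counts and overlapped between the populations (0.22, 95% interval -0.42 to 0.86), and leaving out Il10-EGFP- replicate 2 turned it to -0.16.

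All 3 genes of the chromosome surface and DNA topology rose. Top2a, the topoisomerase that untangles sister DNA, was the most abundant of all 59, with 1014 and 924 against 1571 and 1741 counts, or 1362 ± 19.9 against 2500 ± 15.8 CPM (SD, n = 2 each). Its log2 fold change of 0.88 had a standard error of 0.12 (adjusted p = 5.29e-07, edgeR), and leaving out any library kept it between 0.86 and 0.89. Mki67, which coats mitotic chromosomes and keeps them apart, had 119 and 85 against 289 and 290 counts (1.61, standard error 0.17, adjusted p = 1.04e-09, edgeR), the smallest p among the 59. Cdca2, which brings a phosphatase to chromosomes in anaphase, had 23 and 13 against 39 and 48 counts (1.37, adjusted p = 0.00868, edgeR) and lost its call without Il10-EGFP- replicate 2 (0.125) or Il10-EGFP+ replicate 2 (0.0831).

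Of the 9 spindle microtubule-binding genes, 6 rose, with a median of 1.18. Hmmr, a spindle pole protein, had the largest log2 fold change of the 59: 21 and 29 against 85 and 79 counts (1.81, standard error 0.27, adjusted p = 5.37e-06, edgeR). Nusap1, which bundles microtubules near chromosomes, had 55 and 41 against 133 and 145 counts (1.64, standard error 0.21, adjusted p = 1.96e-07, edgeR). Exons of Nusap1 overlap those of Oip5 on the other strand, which had 52 counts in all. Tpx2, the activator of Aurka, had 57 and 42 against 111 and 107 counts (1.24, standard error 0.22, adjusted p = 0.000123, edgeR), and Tacc3, which crosslinks spindle fibres, had 50 and 49 against 99 and 110 (1.18, standard error 0.22, adjusted p = 0.000244, edgeR). In each of these 4 genes the populations lay far apart.

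Ckap2l, a protein of the spindle and its poles, had 36 and 35 against 57 and 87 counts (1.11, adjusted p = 0.00463, edgeR) and lost its call without Il10-EGFP+ replicate 2 (0.18). Dlgap5, which stabilises fibres near kinetochores, had 14 and 11 against 23 and 42 counts (1.47, adjusted p = 0.0201, edgeR), and its log2 fold change was 1.59 and 1.35 without either Il10-EGFP- library (adjusted p = 0.0517 and 0.0892, edgeR) and 1.04 without Il10-EGFP+ replicate 2 (0.365). The other 3 did not pass. Ckap5, a microtubule polymerase that interphase cells use as well, had 53 and 47 against 63 and 67 counts (0.48, adjusted p = 0.325, edgeR). Aspm, a spindle pole protein, had 29 and 46 against 56 and 45 counts (0.53, adjusted p = 0.377, edgeR), and Ckap2, a related microtubule-binding protein, had 22 and 16 against 17 and 36 (0.57, adjusted p = 0.521, edgeR). Both of the latter overlapped between the populations. With a library left out, Aspm ran from 0.18 (without Il10-EGFP- replicate 1) to 0.96 (without Il10-EGFP- replicate 2). Ckap2 ran from 0.012 (without Il10-EGFP+ replicate 2) to 0.96 (without Il10-EGFP+ replicate 1).

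Cytokinesis cuts the cell at the midzone, and 2 of its 4 genes rose, with a median of 1.04. All 4 had populations that did not overlap in CPM, where 22.3% of all genes tested were higher without overlap. Prc1, which bundles the midzone microtubules and brings Kif4 there, had 53 and 54 against 128 and 140 counts, or 75.4 ± 4.84 against 202.4 ± 0.597 CPM (SD, n = 2 each). The difference was 1.42 on the log2 scale (standard error 0.20, adjusted p = 2.19e-06, edgeR). Racgap1, which with Kif23 forms centralspindlin, had 64 and 48 against 93 and 81 counts (0.74, standard error 0.22, adjusted p = 0.0427, edgeR). The log2 fold change of Racgap1 was 0.90 and 0.60 without either Il10-EGFP- library (adjusted p = 0.0692 and 0.276, edgeR) and 0.57 without Il10-EGFP+ replicate 1 (0.339). Anln (anillin), a scaffold of the contractile ring, had 15 and 8 against 20 and 34 counts, and its log2 fold change of 1.32 (standard error 0.42) missed the threshold (adjusted p = 0.0634, edgeR), which it passed without Il10-EGFP+ replicate 1 (0.0416). Ect2, the exchange factor that switches on RhoA at the midzone, had 9 and 25 against 27 and 27 counts (0.76, standard error 0.40, adjusted p = 0.364, edgeR), and its 9 counts in Il10-EGFP- replicate 1 bore on the value, which was 0.16 without that library and 1.73 without Il10-EGFP- replicate 2.

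None of the 6 tested regulators of mitotic entry and exit passed the threshold in edgeR or in DESeq2, which gave Cdc25c no adjusted p. All 6 had a positive log2 fold change, against 4804 of the 9608 genes tested. In 5 the populations did not overlap, and 22.3% of all genes tested were higher without overlap. An unadjusted p under 0.05 (edgeR) was reached by 3, against 1485 of the 9608 genes tested, in either direction. The median of the 6 was 0.51. Cdc20, which activates the anaphase-promoting complex, had 48 and 45 against 68 and 59 counts (0.55, 95% interval 0.06 to 1.05, adjusted p = 0.25, edgeR). Cdca3, a mitotic entry factor, had 41 and 26 against 54 and 47 counts (0.70, adjusted p = 0.184, edgeR; 0.46 to 1.00 with a library left out), and Cdc25b, a phosphatase that activates Cdk1, had 14 and 10 against 23 and 22 (1.01, adjusted p = 0.221, edgeR). Pttg1 (securin), which holds back the cutting of cohesin, had 78 and 89 against 102 and 93 counts (0.33, adjusted p = 0.476, edgeR; 0.18 to 0.48 with a library left out). Cks1b, a Cdk-binding subunit that also serves earlier in the cycle, had 199 and 210 against 231 and 220 counts (0.24, 95% interval -0.07 to 0.55, adjusted p = 0.485, edgeR; 0.14 to 0.34 with a library left out). Cdc25c had 1 and 5 against 1 and 7 counts, too few to show a difference at this depth, and its exons overlap those of Gm3550 on the other strand, which had 29 counts.

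The rest of the pathway was read from lists of other genes, with the same fit. Of 101 tested genes among 103 other mitosis genes, 11 rose and none fell, 78 had a positive log2 fold change, and the median was 0.36. The 11 are 10.9% of the tested list, where 2.35% of all genes tested were called higher. Cenpl, an inner kinetochore protein, had 20 and 15 against 55 and 71 counts (1.94, adjusted p = 1.8e-05, edgeR). Ube2c, the ubiquitin-conjugating enzyme of the anaphase-promoting complex, had 43 and 22 against 87 and 73 counts (1.41, adjusted p = 0.00031, edgeR). Ccna2, a cyclin of S phase and mitosis, had 102 and 106 against 173 and 205 counts (0.96, adjusted p = 0.000196, edgeR), and Ccnb2, a mitotic cyclin, had 23 and 12 against 50 and 57 (1.71, adjusted p = 0.000326, edgeR). None of these 4 genes overlapped between the populations. Ccnb1, the related mitotic cyclin, was chosen after its values were seen and had 27 and 27 against 24 and 26 counts (-0.0087, 95% interval -0.70 to 0.68).

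Of 20 tested regulators of mitotic transcription, 2 rose (10%, where 2.35% of all genes tested were called higher). E2f2, an activator of cell cycle genes, had 34 and 48 against 66 and 91 counts (1.03, adjusted p = 0.00714, edgeR) and E2f8, a repressor of E2F targets, had 13 and 18 against 42 and 28 (1.28, adjusted p = 0.0338, edgeR). Foxm1, the activator that works at CHR promoters, had 39 and 29 against 67 and 43 counts (0.80, adjusted p = 0.101, edgeR), and E2f7, a repressor like E2f8, had 24 and 16 against 35 and 37 (0.95, adjusted p = 0.105, edgeR). Mybl2, which encodes B-Myb and was chosen after its values were seen, had 24 and 18 against 11 and 5 counts (-1.27, adjusted p = 0.149, edgeR). Neither Foxm1 nor Mybl2 passed the threshold, and their log2 fold changes had opposite signs.

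DNA replication genes, which act in S phase before mitosis, stood at a median of 0.08 over 50 tested genes. Of these, 31 had a positive log2 fold change, 3 rose and none fell in edgeR. The 3 are 6% of the list, where 2.35% of all genes tested were called higher. None of the lists of other genes was tested against that share. Rrm2, a subunit of the enzyme that makes deoxynucleotides, had 137 and 135 against 196 and 261 counts (0.85, adjusted p = 0.000466, edgeR), Clspn, a replication checkpoint adaptor, had 81 and 82 against 143 and 135 (0.87, adjusted p = 0.00212, edgeR) and Tk1, a thymidine kinase, had 155 and 167 against 258 and 223 (0.68, adjusted p = 0.00541, edgeR). Mcm2, a part of the replicative helicase, had 330 and 293 against 232 and 185 counts (-0.47, adjusted p = 0.0695, edgeR). A CHR match stood in 17.5% of the 40 replication genes with a promoter window and in 39.8% of the 88 other mitosis genes. The difference in log2 fold change between the mitotic and the replication genes was not tested.

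**Figure D5:**
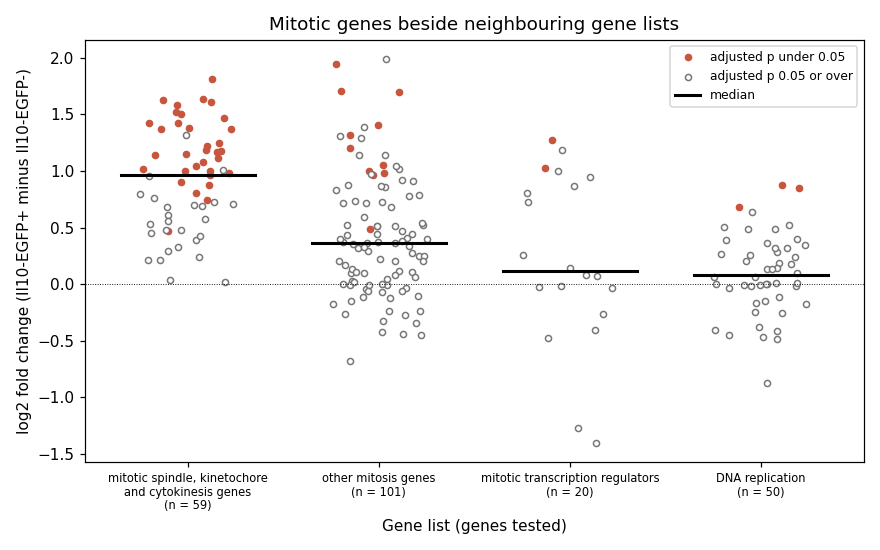
The log2 fold change, Il10-EGFP+ minus Il10-EGFP-, of every tested gene in 4 lists; each point is a gene, filled where its adjusted p was under 0.05, and the bar is the list's median. The medians are 0.96 for the 59 mitotic genes, 0.36 for other mitosis genes, 0.11 for regulators of mitotic transcription and 0.08 for DNA replication genes.

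Some counts could hold reads of neighbouring or similar genes. Exons of 17 of the 59 genes overlap those of another gene, 15 share at least 1 word of 50 bases in their transcript ends with another gene, and 30 do either. Beside Kif20a and Nusap1, called genes that overlap a counted gene on the other strand are Kif4 (Pdzd11, 120 counts in all), Cdca8 (9930104L06Rik, 44), Ncapg (Lcorl, 59), Tacc3 (Tmem129, 29) and Prc1 (Rccd1, 38). Among the other 29 genes, 12 were called higher (41.4%, against 55.9% of the 59), and all 29 had a positive log2 fold change. The median of these 29 was 0.76, against 0.96 for the 59. In 10 genes the call held in the edgeR fit and in each of 14 alternative fits: Cenpe, Cenpf, Birc5, Plk1, Ncapd2, Mki67, Top2a, Nusap1, Hmmr and Prc1. Of these, Cenpf, Plk1, Ncapd2, Mki67, Top2a, Nusap1 and Prc1 are among the 30 that share an exon or a transcript end. The alternative fits did not address shared reads.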

How the data were processed

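RNA was measured in 4 libraries of sorted CD4+ T cells. Per the labels and the study's methods, the authors used a 3′ end kit and the BlueBee pipeline, with STAR 2.5.2a and HTSeq 0.6.0 (named in the submitters' processing notes), on GRCm38. They deposited unnormalized counts for each Ensembl gene. They also deposited rlog values from DESeq2, which are on a log2 scale. Per the methods, molecular identifiers served to assess duplicates and remove amplification bias. How they entered the deposited counts, and which strand setting was used, is not given in the sources used here. Libraries held 644679 to 730330 counts, so a gene near 10 counts carries a large counting error. Counts were tested here with edgeR 4.0.16 in R 4.3.3 (quasi-likelihood test, default settings, TMM, Benjamini-Hochberg over 9608 genes with at least 10 counts in all, threshold 0.05). Each standard error is the absolute log2 fold change divided by the root of F, and 95% intervals use the t distribution. With 2 libraries against 2, an exact two-sided permutation test of a single value cannot go below p = 0.333, so none was run. Alternative fits used DESeq2 1.42.0 and limma 3.58.1. The edgeR and DESeq2 fits were also run on simulated counts, with results not given here. Positions come from GENCODE M21 (GRCm38). Symbols came from a table that lacked 419 of 47643 identifiers. The genes and lists were chosen with earlier results of these data known. Every listed gene is named. Of each pathway list, the 4 genes with the smallest p are named, and of the marker lists the defining genes.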

Additional observations from a re-analysis of the deposited data

How the results depend on the processing

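Of 820 gene values under alternatives, 727 kept their direction and their side of the threshold, 76 lost the call, 10 gained it and 7 changed sign. With each library left out in turn, Bub3 ran from -0.068 to 0.14, Mad2l1 from -0.12 to 0.15, Ncaph from -0.16 to 0.76 and Cdc25c from -0.28 to 1.22 on the log2 scale, which gives 6 of the 7, and Mad2l1 was -0.011 with library size only. The 33 calls became 21 in DESeq2, 23 in limma fitted to rlog, 25 at an adjusted p under 0.01, 23 to 31 with a library left out, and 31 to 35 under the other scalings, filters and fits without a block. Without the genes that share an exon or transcript end, a split chosen after seeing the data, 12 of 29 were called. That is 41.4%, against 55.9% of all 59, and the median log2 fold change was 0.76 against 0.96. The list is smaller by construction, and its share and median were lower as well. The median log2 fold change of 0.96 was 0.89 to 0.97 with a library left out and 0.33 on the rlog scale, which shrinks low counts. All genes called went from 393 to 112 with DESeq2 (71 higher, 41 lower), 197 with limma on rlog and 177 at an adjusted p under 0.01, and to between 212 and 272 with a library left out. The cause was not tested.

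By role, DESeq2 called 4 kinesin, 0 checkpoint and 1 cytokinesis genes. Limma on rlog called 0 checkpoint genes and 1 cytokinesis gene, which was 1 also with library size only and without the filter. At an adjusted p under 0.01, 0 checkpoint, 1 condensin and 1 cytokinesis gene remained past the threshold. With a library left out, the calls ran from 3 to 7 for the kinetochore, 0 to 1 for the checkpoint, 1 to 3 for condensin and 1 to 2 for cytokinesis. For other mitosis genes the 11 calls became 6 with DESeq2, 6 at 0.01 and 7 to 10 with a library left out. For regulators of mitotic transcription the 2 calls became 0 with DESeq2 and with limma on rlog, 1 at 0.01 and 0 to 2 with a library left out. For DNA replication the 3 calls became 1 with DESeq2, 5 with limma voom (4 higher, 1 lower) and 6 with at least 10 counts in every library (5 higher, 1 lower), and without Il10-EGFP+ replicate 1 they were 2 higher and 1 lower. The share of genes with a CHR match was 82.0% in the whole window and 38.0% before the start.

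The populations share replicate numbers and the methods speak of a replicate pair, but the sources used here do not say that a number marks 1 mouse, and over 4965 genes the correlation of their deviations from the population means was 0.035. A replicate block in edgeR called 36 of the 59 genes and 7 DNA replication genes (5 higher, 2 lower). A replicate block in DESeq2 called 39 genes in all (27 higher, 12 lower) and 10 of the 59. By role these were 0 kinesin, 2 kinetochore, 0 checkpoint, 2 passenger and kinase, 1 condensin, 2 chromosome surface and topology, 2 spindle-binding and 1 cytokinesis genes. It called 0 other mitosis, 0 transcription and 0 DNA replication genes.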
